A study of Mus musculus with 6 samples.

Results

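The table of gene expression from mouse corneal epithelium was searched for cytochrome P450 genes, taken as every symbol that starts with Cyp and a digit. Of 68 such symbols among 17554 genes, *Cyp26a1*, *Cyp26b1*, *Cyp26c1* and *Cyp51* were left out by the rule, which leaves 64 members. Mouse P450 genes without a row in the table, such as *Cyp2a4* and *Cyp3a11*, are not counted. Sizes of families and clusters below are therefore those of the table. The epithelial layer of the cornea gave 3 mutant samples, labelled Rela-/- and described in the study as *Krt14-Cre; Rela* f/f, and 3 control samples, labelled WT, whose Cre and floxed alleles are not given. All mice were on a C57BL/6 background and 2 months old. The samples of a genotype were independent, although the number of animals behind each is not given. Below, n therefore counts samples and not animals, and an SD is the spread between samples. In the mutant mice the recombinase Cre is expressed from the keratin 14 promoter, so that *Rela*, the gene of an NF-κB subunit, is deleted in the epithelium of the cornea and also in conjunctiva, meibomian gland, skin and other epithelia that use this promoter. Cells in the layer that never expressed keratin 14 keep the gene.

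Cytochrome P450 enzymes are haem proteins that insert an oxygen atom into small lipophilic molecules, with electrons passed on from NADPH by a reductase or, in mitochondria, by ferredoxin. Families 1 to 3 mainly handle foreign compounds and also arachidonic acid. Family 4 hydroxylates fatty acids and eicosanoids near the end of their chain, and the other families act on sterols, bile acids, steroid hormones and vitamin D. In cornea and skin, arachidonic acid products of these enzymes are known mediators of inflammation, and family 4 also takes part in making barrier lipids.

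Total expected counts, the read numbers that RSEM assigns to a gene, lay between 19492942 and 19733834 per sample, so that 3 counts, used here as a detection limit, equal 0.152 to 0.154 CPM, the count scaled to a common library size. This limit covers counting error only, since PCR can copy 1 molecule into many reads. The FPKM of *Rela*, a level scaled by transcript length and depth, was 36.5, 34.7 and 33.4 in control corneas and 4.93, 5.53 and 5.72 in mutant corneas. The corneal keratin gene *Krt12* had 34007 to 39273 CPM in control and 31228 to 33883 CPM in mutant corneas, and *Pax6*, a transcription factor gene of the eye, had 764 to 814 CPM and 689 to 736 CPM. *Krt14*, whose promoter drives Cre, had 241 to 321 CPM in control and 2331 to 3639 CPM in mutant corneas. The 6 keratocyte markers summed to at most 7.39 CPM, and *Kera* had 3 or fewer counts in every sample. Markers of blood vessels (at most 0.748 CPM) and red blood cells (at most 0.504 CPM) were close to 0. The conjunctival list (*Krt4*, *Krt13*, *Krt19*, *Muc5ac*, *Agr2*, *Spdef*) summed to 2246 to 2629 CPM in the control and 1663 to 1975 CPM in mutant corneas, with the goblet cell mucin *Muc5ac* at 3 or fewer counts throughout. The 4 lens markers summed to 7.52 to 8.32 CPM in the control and 12.9 to 18.4 CPM in the mutant samples. The 6 corneal epithelium markers summed to 81480 to 91180 CPM in control and 76540 to 81420 CPM in mutant corneas. The sums of this list and of the keratocyte, blood vessel, conjunctival and lens lists did not overlap between the genotypes. Among single genes tested, 32.6% had FPKM values that did not overlap. The blood vessel sums lay near the detection limit, at 0.101 to 0.418 CPM in control and 0.463 to 0.748 CPM in mutant corneas. None of these vessel markers had enough counts to be tested. The part of these markers, and of *Krt14*, in the results on P450 genes was not tested.

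The first question was which members the corneal epithelium expresses. With expression taken as an FPKM of at least 1 in all 3 samples of a genotype, 19 of the 64 members were expressed, whereas 61.6% of all genes in the table were. Another 9 members had enough counts to be tested without reaching that level. A further 15 had more than 3 counts in some sample, with at most 12.6 counts, and 21 members had 3 or fewer counts in every sample. Next to the limit, *Cyp4a10* had a lowest mutant value of 0.93 FPKM and *Cyp7b1* of 0.73 FPKM, just outside it, while *Cyp2r1* and *Cyp4v3* lay inside it with lowest control values of 1.76 and 1.78 FPKM.

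*Cyp4a12b* stood far above the other members, with an FPKM of 278, 267 and 301 in control corneas and of 222, 269 and 242 in mutant corneas. It gave 57.7% to 63.9% of the summed FPKM of all members and ranked between 192nd and 265th among all genes of a sample. The next members, *Cyp2s1* and *Cyp3a13*, had a mean FPKM over the 6 samples of 34.7 and 33.9. Their order depended on the genotype. *Cyp3a13* was above *Cyp2s1* in each control cornea, with 40.5 to 44.3 against 31.5 to 36.5 FPKM, and below it in each mutant cornea, with 18.5 to 28.8 against 28.9 to 39.6 FPKM. *Cyp39a1* (16.6 FPKM on average) and *Cyp4f13* (14.03 FPKM) came next. Behind them *Cyp2j6*, *Cyp2b19*, *Cyp4f15*, *Cyp4a12a* and *Cyp2a5* had mean levels from 5.14 to 8.67 FPKM. Levels of *Cyp4f17*, *Cyp27a1*, *Cyp2j9* and *Cyp24a1* (4.13 to 4.59 FPKM on average) overlapped between samples and could not be put in order. *Cyp4f16*, *Cyp20a1*, *Cyp4f39*, *Cyp4v3* and *Cyp2r1* closed the list at 1.73 to 3.50 FPKM.

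**Figure D1:**
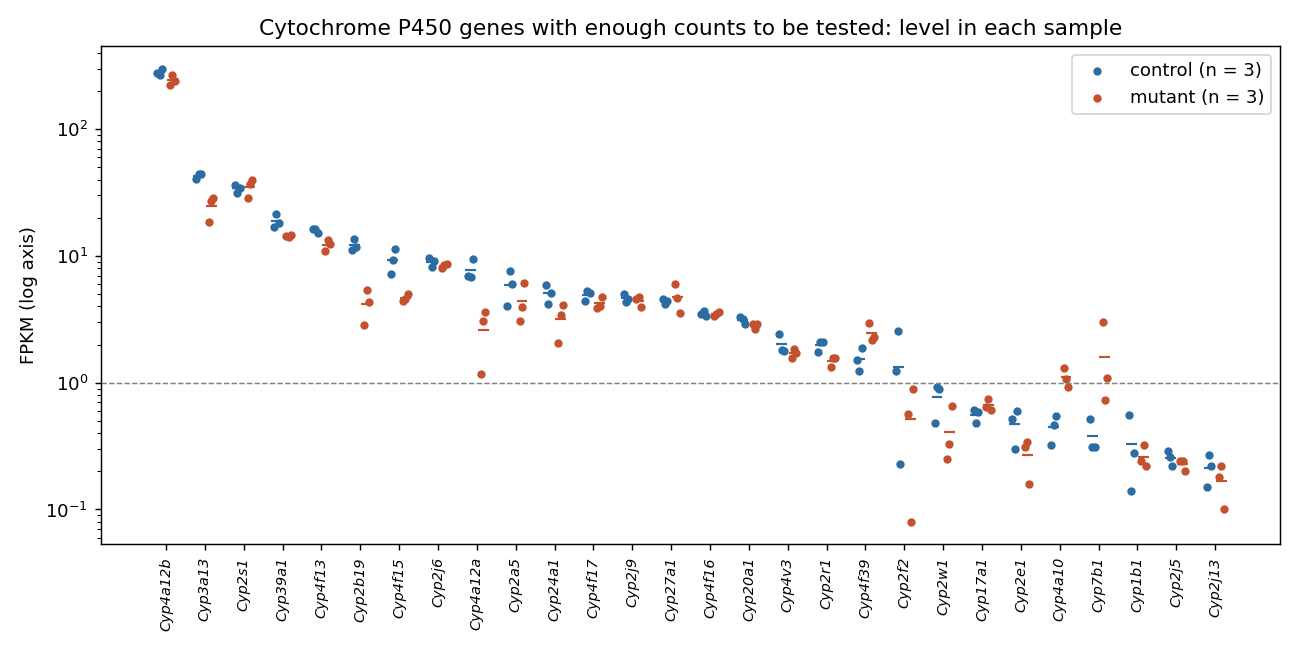
FPKM (log axis) of the 28 P450 genes with enough counts to be tested, in the 3 control samples (blue) and the 3 mutant samples (red); short lines are the means and the dashed line is an FPKM of 1. *Cyp4a12b* lies between 222 and 301 FPKM in all samples, and the mutant points of *Cyp2b19*, *Cyp3a13*, *Cyp4f15* and *Cyp4a12a* lie below all control points.

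Many members stand in tandem clusters, here counted as members less than 1 Mb apart on GRCm38. The cluster of 8 members of subfamily 4f on chromosome 17 (32452697 to 32947472) held 5 expressed genes. The 9 members of families 4a and 4b on chromosome 4 (115242084 to 115647705) held 2, *Cyp4a12a* and *Cyp4a12b*, and the 6 members of subfamily 2j on the same chromosome held 2, *Cyp2j6* and *Cyp2j9*. On chromosome 7 (25802476 to 27158564), 3 of 9 members were expressed, *Cyp2s1*, *Cyp2b19* and *Cyp2a5*. None of the clustered members of subfamilies 2c, 2d and 3a on chromosomes 19, 15 and 5 was expressed by this rule. Their relatives are best known from liver and gut, and the highest level among these members was 0.24 FPKM.

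The second question was how these genes differed between the genotypes. The study reports basal cell atrophy at the central cornea of mutant mice of this age, and its part in the differences was not tested. Of the 28 members tested, 8 changed at an adjusted p under 0.05 (quasi-likelihood test of edgeR, Benjamini-Hochberg adjusted across 12667 genes), 6 of them lower and 2 higher in mutant corneas. This is 28.6% of the members tested, against 13.2% of all genes tested, of which 5.42% were lower and 7.82% higher. The methods of the study used stricter thresholds, a 2-fold change with an adjusted p no higher than 0.001. Applied here to the edgeR fit and not to the authors' own comparison, these left 1 member, *Cyp2b19*, which was lower. By the same rule 1.37% of all genes were called and 0.0553% were lower. The log2 fold change was negative in 21 of the 28 members and positive in 7, with a median of -0.32, beside a median near 0 over all genes tested. FPKM values did not overlap between the genotypes in 12 of the 28, of which 9 were lower and 3 higher, against 32.6% of all genes tested, with 15.2% lower and 17.5% higher. Summed over all 64 members, the FPKM was 466, 462 and 497 in control corneas and 351, 421 and 400 in mutant corneas, and each mutant sum was below each control sum. In bulk RNA, fewer cells of a type and less RNA per cell cannot be told apart. The number of members called was 5 without control sample 1, 4 without control sample 2 and 4 without control sample 3. *Cyp2b19*, *Cyp3a13* and *Cyp4f15* were among those called in each of these fits.

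**Figure D2:**
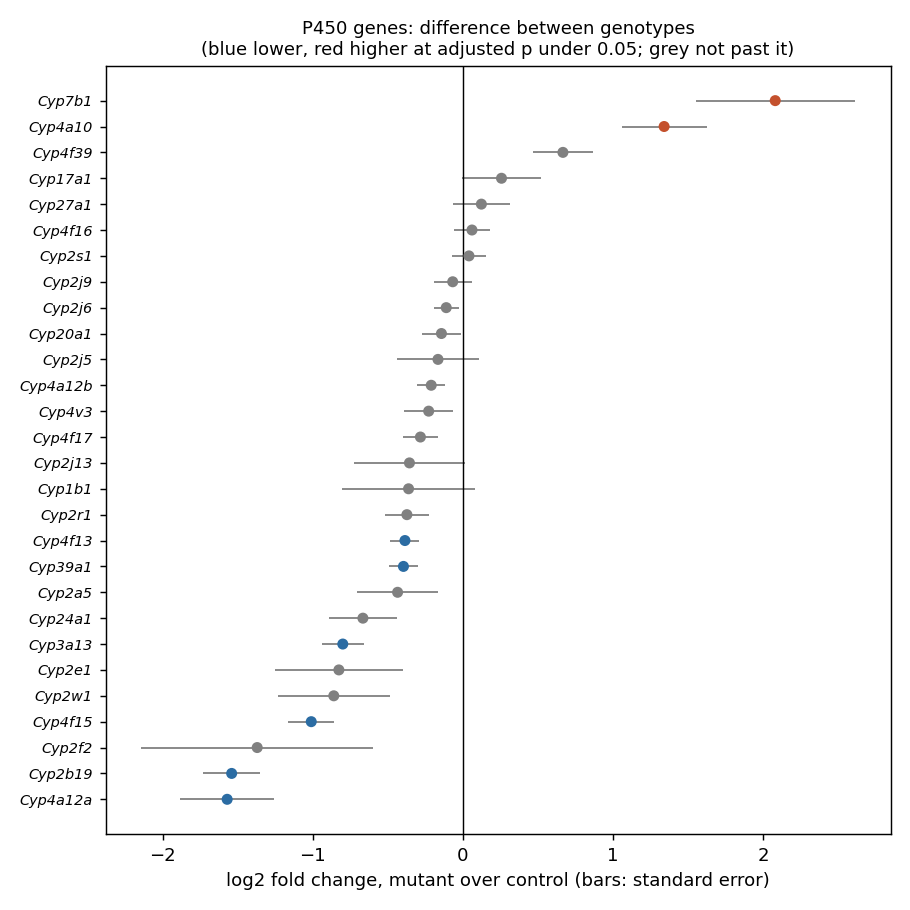
Log2 fold change (mutant over control, 3 samples each) with its standard error for the 28 P450 genes tested, ordered by size. Blue (lower) and red (higher) points passed an adjusted p of 0.05 in edgeR's test, and grey points did not. The 6 blue genes run from *Cyp4a12a* at -1.57 to *Cyp4f13* at -0.39, and the red genes are *Cyp4a10* at 1.34 and *Cyp7b1* at 2.08.

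Family 4 held 19 members, 9 of them tested. Of these 9, 3 fell (*Cyp4a12a*, *Cyp4f15* and *Cyp4f13*), 1 rose (*Cyp4a10*) and 5 did not pass the test. The 4 called were 44.4% of those tested, against 13.2% of all genes tested. *Cyp4a12a* and *Cyp4a12b* encode kidney-type hydroxylases of arachidonic acid and are neighbours on the plus strand of chromosome 4 (GRCm38, 115299046 to 115332815 and 115411624 to 115439034). Their coding sequences of 1524 bases differ at 23 positions and are 98.5% identical, with a longest identical run of 342 bases. Of the 50-base windows of *Cyp4a12a* transcripts, 48.9% also occur in *Cyp4a12b*, so many reads of 50 bases cannot be assigned to one of these genes by sequence. The stretch of 60 coding bases with the most differences inside an exon is shown because reads over it can be assigned. It is in exon 6 of both genes, at chr4:115326628-115326687 in *Cyp4a12a* and chr4:115432881-115432940 in *Cyp4a12b* (GRCm38, plus strand, GENCODE transcripts), and capitals mark the 4 bases that differ.
Cyp4a12a: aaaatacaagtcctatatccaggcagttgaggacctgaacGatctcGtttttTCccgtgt
Cyp4a12b: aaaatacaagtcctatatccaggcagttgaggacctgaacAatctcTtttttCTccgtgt

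The FPKM of *Cyp4a12a* was 7.01, 6.78 and 9.43 in control corneas and 1.17, 3.06 and 3.63 in mutant corneas, without overlap. Its log2 fold change was -1.57 ± 0.315 (SE, adjusted p = 0.0105, edgeR). The call was lost without control sample 3 (log2 fold change -1.39, adjusted p = 0.0515). For *Cyp4a12b* the log2 fold change was -0.21 ± 0.0935 (SE, adjusted p = 0.176, edgeR), and the level of mutant sample 2 lay inside the control range. *Cyp4a12a* held 2.49%, 2.504% and 3.07% of the expected counts of the pair in control corneas and 0.528%, 1.14% and 1.496% in mutant corneas. With both genes summed as 1, a choice made after the data were seen, the log2 fold change was -0.23 ± 0.095 (SE, adjusted p = 0.14, edgeR) and was not past the threshold. How RSEM divided the shared reads was not examined, so the fall of *Cyp4a12a* alone is uncertain.

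**Figure D3:**
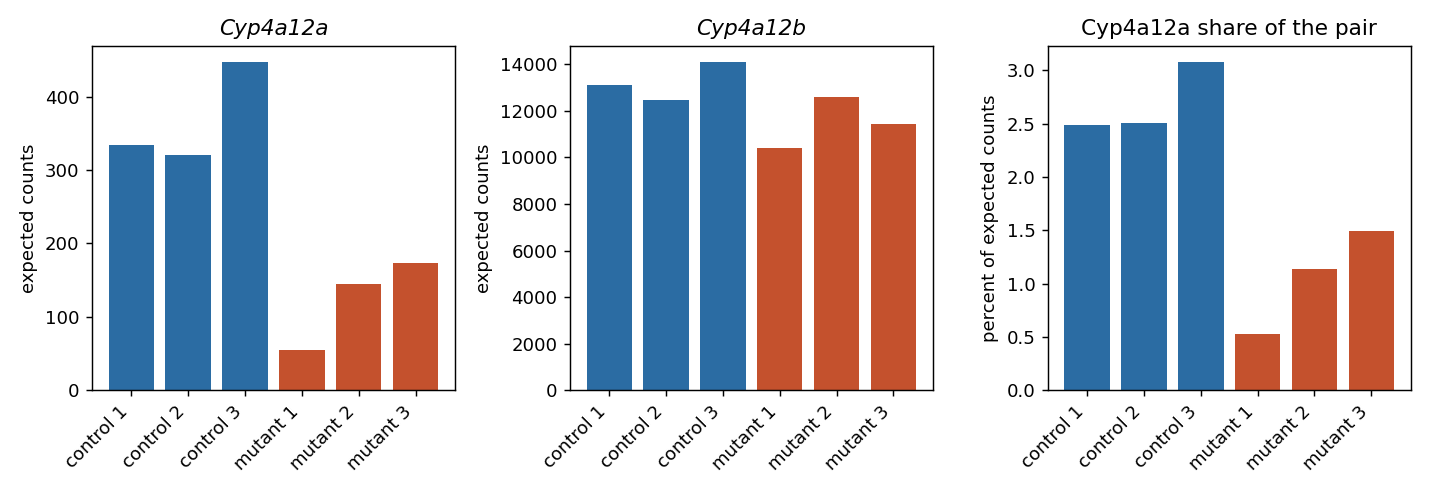
Expected counts of *Cyp4a12a* and *Cyp4a12b* (left and middle panels) and the share of the pair's counts given to *Cyp4a12a* in percent (last panel), 1 bar per sample, control in blue and mutant in red. The share lies between 2.49% and 3.07% in control corneas and between 0.528% and 1.496% in mutant corneas.

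*Cyp4f15* (gene 106648, chromosome 17, 32685598 to 32703352) had an FPKM of 7.24, 9.21 and 11.3 in control corneas and of 4.44, 4.55 and 4.98 in mutant corneas. Every mutant sample was below every control sample, and the mutant values lay close together. The mean was 9.26 ± 2.05 in control and 4.66 ± 0.285 in mutant mice (SD, n = 3 each), with a log2 fold change of -1.01 ± 0.154 (SE, adjusted p = 0.00251, edgeR). *Cyp4f13*, in the same cluster, fell from 15.9 ± 0.681 to 12.2 ± 1.25 FPKM (SD, n = 3 each), with a log2 fold change of -0.39 ± 0.0965 (SE, adjusted p = 0.0287, edgeR). That call was lost in each fit that left out a sample except that without mutant sample 2, with adjusted p-values of 0.0533 without mutant sample 1, 0.0669 without mutant sample 3, 0.0957 without control sample 1, 0.0956 without control sample 2 and 0.0673 without control sample 3. The other expressed 4f genes did not pass the test. *Cyp4f16* had a mean of 3.50 FPKM in control and 3.49 FPKM in mutant mice, with 17.4% of its windows also found in other transcripts, mainly those of *Cyp4f37*, and *Cyp4f17* of 4.95 and 4.22 FPKM. *Cyp4f39*, the mouse counterpart of a human gene whose enzyme hydroxylates very long fatty acids for the ceramides of the skin barrier, had an FPKM of 1.51, 1.23 and 1.89 in control corneas and of 2.95, 2.17 and 2.29 in mutant corneas. Its values did not overlap, with a log2 fold change of 0.67 ± 0.202 (SE), but its adjusted p was 0.0591 in edgeR and 0.0432 in DESeq2.

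*Cyp4a10*, a fatty acid hydroxylase that PPARα is known to induce in liver, had 13.1, 18.5 and 22.5 counts in control corneas and 53.2, 43.7 and 38.1 counts in mutant corneas. It rose by a log2 fold change of 1.34 ± 0.283 (SE, adjusted p = 0.0134, edgeR), from a low level of 0.443 to 1.10 FPKM. On the log2(FPKM + 1) scale of limma the difference was 0.54 (adjusted p = 0.00818). The call was lost without control sample 1 (adjusted p = 0.053) and without control sample 2 (adjusted p = 0.059). Of its 50-base windows, 29.8% occur in transcripts of other genes, most of them in *Cyp4a32*, which had at most 3.61 counts. *Cyp4v3*, the counterpart of the human gene mutated in Bietti crystalline corneoretinal dystrophy, had a mean FPKM of 2.01 ± 0.373 in control and 1.72 ± 0.145 in mutant mice (SD, n = 3 each, adjusted p = 0.411, edgeR). Its exons overlap those of *Gm45753* over 8.22% of their length. *Cyp4b1*, known from work on hypoxic rabbit cornea, had 2 to 7 counts per sample and was not tested.

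Family 2, without the vitamin D enzyme *Cyp2r1*, held 26 members, 10 of them tested, of which 1 fell and 9 did not pass the test. This share of 10% is near the 13.2% of all genes tested. The member that fell was *Cyp2b19* (gene 13090, chromosome 7, 26757142 to 26772630, plus strand), an epoxygenase of arachidonic acid known from differentiating keratinocytes. Its FPKM was 11.2, 13.6 and 11.8 in control corneas and 2.87, 5.43 and 4.32 in mutant corneas. The highest mutant value was below the lowest control value, and mutant sample 1 was lowest. The mean fell from 12.2 ± 1.26 to 4.21 ± 1.28 FPKM (SD, n = 3 each), a log2 fold change of -1.54 ± 0.188 (SE, adjusted p = 7.87e-04, edgeR), or 34.4% of the control level. Without each sample in turn, the log2 fold change lay between -1.77 and -1.33 and the adjusted p stayed under 0.05. The adjusted p was above 0.001 without control sample 1, 2 or 3 or mutant sample 3.

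*Cyp2s1*, an extrahepatic enzyme known to be induced by dioxin, lies in the same cluster on chromosome 7 and had an FPKM of 36.5, 31.5 and 34.4 in control corneas and of 28.9, 37.2 and 39.6 in mutant corneas. The groups overlapped, and the log2 fold change was 0.04 ± 0.114 (SE, adjusted p = 0.859, edgeR), with a sign that turned without control sample 2, mutant sample 2 or mutant sample 3. *Cyp2a5*, a coumarin hydroxylase, had 4.05, 7.58 and 6.06 FPKM in control corneas and 3.07, 3.96 and 6.12 FPKM in mutant corneas (adjusted p = 0.333, edgeR). Of its windows, 37.0% occur in other transcripts, mainly those of *Cyp2a4*. *Cyp2f2*, known from airway club cells, varied widely within a group, with 44, 90 and 8 counts in control corneas and 20, 3 and 32 in mutant corneas. Its exons overlap those of *Gm15883* on the opposite strand over 13.5% of their length, and it is not known whether counting used strand. The 4 tested members of subfamily 2j, epoxygenases of arachidonic acid, gave 0 calls with edgeR and also 0 with DESeq2. *Cyp2j6* had a mean FPKM of 8.94 ± 0.756 in control and 8.40 ± 0.278 in mutant mice (SD, n = 3 each), and *Cyp2j9* of 4.65 ± 0.358 and 4.44 ± 0.409.

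*Cyp3a13* (gene 13113, chromosome 5, 137892933 to 137921619, minus strand), the only tested member of family 3, the family of broad drug and steroid hydroxylases, had an FPKM of 40.5, 44.1 and 44.3 in control corneas and of 18.5, 27.01 and 28.8 in mutant corneas. The groups did not overlap, and mutant sample 1 was lowest. It fell from 43.0 ± 2.11 to 24.8 ± 5.51 FPKM (SD, n = 3 each), a log2 fold change of -0.80 ± 0.141 (SE, adjusted p = 0.00569, edgeR). The adjusted p stayed under 0.05 in every alternative that was run, and the log2 fold change between -0.91 and -0.63. The other 3 members of the family had at most 2 counts in a sample.

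The promoters of *Cyp2b19*, *Cyp3a13*, *Cyp4f15* and *Cyp4f13*, which fell, and of *Cyp2s1* are shown to compare their sequence. *Cyp2s1* lies in the cluster of *Cyp2b19*, with other members between them, and did not pass the test. Each promoter runs from 250 bases before to 50 bases after the annotated start (RefSeq, GRCm38.p6). They lie at chr7:26756892-26757191 on the plus strand (*Cyp2b19*), chr5:137921570-137921869 on the minus strand (*Cyp3a13*), chr17:32685409-32685708 on the plus strand (*Cyp4f15*), chr17:32947312-32947611 on the minus strand (*Cyp4f13*) and chr7:25816476-25816775 on the minus strand (*Cyp2s1*). Capitals mark matches, on either strand, to a loose κB pattern (GGG, any 5 bases, then CC), to the AP-1 pattern TGANTCA and to the nuclear receptor half-site AGGTCA.
Cyp2b19: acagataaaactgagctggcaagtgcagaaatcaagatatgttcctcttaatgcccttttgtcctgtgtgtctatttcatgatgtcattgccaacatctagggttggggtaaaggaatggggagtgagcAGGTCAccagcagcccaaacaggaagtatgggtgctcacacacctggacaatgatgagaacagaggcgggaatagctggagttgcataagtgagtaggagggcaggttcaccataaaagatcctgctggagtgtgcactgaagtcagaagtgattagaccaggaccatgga
Cyp3a13: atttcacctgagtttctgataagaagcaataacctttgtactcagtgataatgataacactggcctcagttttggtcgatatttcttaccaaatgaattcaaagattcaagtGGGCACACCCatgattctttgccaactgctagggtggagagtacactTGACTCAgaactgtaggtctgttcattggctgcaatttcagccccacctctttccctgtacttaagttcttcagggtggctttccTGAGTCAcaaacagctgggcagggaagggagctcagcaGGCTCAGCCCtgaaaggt
Cyp4f15: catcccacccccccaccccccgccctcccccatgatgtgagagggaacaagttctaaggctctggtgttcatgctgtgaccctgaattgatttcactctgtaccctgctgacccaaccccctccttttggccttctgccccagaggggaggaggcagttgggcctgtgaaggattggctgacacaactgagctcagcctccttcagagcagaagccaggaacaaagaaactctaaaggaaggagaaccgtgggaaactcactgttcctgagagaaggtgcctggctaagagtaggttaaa
Cyp4f13: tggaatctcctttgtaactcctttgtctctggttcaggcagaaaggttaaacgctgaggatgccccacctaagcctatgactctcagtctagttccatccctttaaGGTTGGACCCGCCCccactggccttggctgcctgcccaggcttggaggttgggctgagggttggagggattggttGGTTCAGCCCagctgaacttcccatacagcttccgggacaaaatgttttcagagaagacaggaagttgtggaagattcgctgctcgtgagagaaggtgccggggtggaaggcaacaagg
Cyp2s1: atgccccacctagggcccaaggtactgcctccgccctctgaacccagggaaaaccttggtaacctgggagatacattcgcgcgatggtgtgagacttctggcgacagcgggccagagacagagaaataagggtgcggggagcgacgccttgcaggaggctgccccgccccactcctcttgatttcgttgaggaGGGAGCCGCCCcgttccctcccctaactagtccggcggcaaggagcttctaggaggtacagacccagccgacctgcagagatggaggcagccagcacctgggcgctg

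In these windows *Cyp3a13* held 2 κB matches, beginning at bases 113 and 283, and 2 AP-1 matches, at bases 160 and 245. *Cyp2b19* held 1 half-site, at base 130, *Cyp2s1* held 2 κB matches that overlap each other, at bases 194 and 195, and *Cyp4f15* held no match. *Cyp4f13* held 3 κB matches, the first at base 107 and the last at base 182. Of the 64 members, 47 matched a RefSeq promoter, with 55 promoters in all, and among them were 4 of the 8 members that changed. The κB pattern was found in 50.9% of these 55 and in 50.8% of all 32851 promoters, and the AP-1 pattern in 9.09% and 7.81%. The half-site was found in 21.8% of the member promoters and in 16.3% of all. These matches describe the letters of the windows.

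Bile acid and oxysterol enzymes held 5 members, 3 of them tested, of which 1 fell and 1 rose. The 2 called were 66.7% of those tested, against 13.2% of all genes tested, a share that rests on 3 genes. *Cyp39a1*, an oxysterol hydroxylase, had an FPKM of 16.9, 21.5 and 18.3 in control corneas and of 14.4, 14.1 and 14.6 in mutant corneas. The groups did not overlap, and the log2 fold change was -0.40 ± 0.0937 (SE, adjusted p = 0.0225, edgeR). The call was lost without control sample 2 (adjusted p = 0.0753), control sample 3 (0.0678), mutant sample 2 (0.0727) and mutant sample 3 (0.0504). *Cyp7b1*, another oxysterol hydroxylase, had 22, 13 and 13 counts in control corneas and 127, 31 and 46 counts in mutant corneas. Each mutant sample was above each control sample, and mutant sample 1 stood apart from the others of its group. The log2 fold change was 2.08 ± 0.53 (SE, adjusted p = 0.0308, edgeR). It was 1.24 without mutant sample 1 (adjusted p = 0.0382), and the call was lost without control sample 1 (adjusted p = 0.0594), control sample 2 (0.129) or control sample 3 (0.111).

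Markers of other cells were high in the same mutant sample. The 6 keratocyte markers summed to 0.561 to 0.857 CPM in control corneas and to 7.39, 4.43 and 1.10 CPM in mutant samples 1, 2 and 3, with *Dcn* the 1 tested gene and higher in mutant corneas. The 7 leukocyte markers summed to 305 to 328 CPM in control corneas and to 460, 313 and 247 CPM in mutant corneas, and none of the 3 tested passed the test. Their part in the level of *Cyp7b1* was not tested. *Cyp27a1*, the sterol hydroxylase of mitochondria, had a mean FPKM of 4.38 ± 0.196 in control and 4.74 ± 1.26 in mutant mice (SD, n = 3 each, adjusted p = 0.717, edgeR), and its log2 fold change of 0.12 turned to -0.10 without mutant sample 1. *Cyp46a1*, the cholesterol hydroxylase of brain, had at most 8 counts in a sample and *Cyp7a1*, the rate-limiting enzyme of bile acid synthesis, at most 2.01 counts.

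Of the vitamin D enzymes, *Cyp24a1*, which inactivates the hormone, had an FPKM of 5.94, 4.15 and 5.10 in control corneas and of 2.04, 3.42 and 4.14 in mutant corneas. All mutant values lay below the control values, the closest being 4.14 and 4.15 FPKM. The log2 fold change was -0.67 (SE 0.225, unadjusted p = 0.0151, adjusted p = 0.084, edgeR), and DESeq2 gave an adjusted p of 0.0181. Without mutant sample 3 the adjusted p was 0.0367. *Cyp2r1*, which adds the first hydroxyl group to vitamin D, had 1.76, 2.08 and 2.10 FPKM in control corneas and 1.33, 1.57 and 1.56 FPKM in mutant corneas, without overlap (unadjusted p = 0.0315, adjusted p = 0.134, edgeR). *Cyp27b1*, which makes the active hormone, had 1 to 3 counts in each sample, at or under the limit set above.

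Of the 5 enzymes of steroid hormone synthesis, 4 were at or under that limit. *Cyp11a1*, *Cyp11b1*, *Cyp19a1* and *Cyp21a1* had 3 or fewer counts in every sample. *Cyp17a1* had 17 to 27 counts per sample, with 0.48 to 0.61 FPKM in the control and 0.61 to 0.75 FPKM in mutant corneas (adjusted p = 0.57, edgeR). *Cyp1b1*, mutated in human congenital glaucoma and a target of the dioxin receptor, was the only member of family 1 in the table. It had 57, 14 and 28 counts in control corneas and 23, 32 and 22 counts in mutant corneas. Its groups overlapped, and its adjusted p was 0.639 in edgeR. *Cyp20a1*, whose substrate is not known, had a mean FPKM of 3.13 ± 0.179 in control and 2.82 ± 0.167 in mutant mice (SD, n = 3 each, adjusted p = 0.509, edgeR).

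Genes related to the P450 enzymes were read from lists of 62 symbols, of which 60 were in the table and 54 were tested. Not all are partners of the enzymes. The lists hold electron donors, haem genes, receptors, targets of the dioxin receptor, epoxide hydrolases, flavin monooxygenases and acylceramide genes. Of the 54, 7 were higher, 5 of them acylceramide genes, and 9 were lower in mutant corneas. This was 29.6% in all, against the 13.2% of all genes. The lists were chosen with earlier results of these data known, so this share is no test of them. Among the 10 electron donors and their partners, 3 fell (30%, against 5.42% of all genes tested) and none rose. The reductase *Por*, which supplies every P450 of the endoplasmic reticulum, had 94.4, 99.2 and 93.9 FPKM in control corneas and 84.3, 89.9 and 108 FPKM in mutant corneas, and the groups overlapped (adjusted p = 0.879, edgeR). *Cyb5a*, the cytochrome b5 that hands some P450 enzymes an electron, had 104, 105 and 110 FPKM in control corneas and 81.8, 66.9 and 71.1 FPKM in mutant corneas (log2 fold change -0.53 ± 0.0922, SE, adjusted p = 0.00521, edgeR). *Pgrmc1*, a haem-binding partner of P450 enzymes, had a log2 fold change of -0.35 and *Cyb5r1* of -0.31 (adjusted p = 0.00828 and 0.0368, edgeR). The call of *Cyb5r1* was lost without control sample 1 or 3 or mutant sample 1 or 2, with adjusted p from 0.0589 to 0.125.

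Of 13 genes of haem synthesis and breakdown, 1 rose and 2 fell, 23.1% in all, against 13.2% of all genes tested. *Hmox1*, the inducible haem oxygenase, had 1.23, 0.92 and 1.31 FPKM in control corneas and 9.01, 5.39 and 4.05 FPKM in mutant corneas, all above the control values and highest in mutant sample 1 (log2 fold change 2.41 ± 0.312, SE, adjusted p = 0.00107, edgeR). *Fech*, which inserts iron into haem, had a log2 fold change of -0.28 and *Alad*, an early enzyme of the pathway, of -0.32 (adjusted p = 0.0267 and 0.0394, edgeR). Leaving out any sample but mutant sample 1 ended the call of *Fech*, with adjusted p from 0.0635 to 0.0967, and leaving out any but mutant sample 3 that of *Alad*, with adjusted p from 0.0595 to 0.135. *Alas1*, the rate-limiting enzyme, had 6.53 to 8.17 FPKM in the control and 7.66 to 9.22 FPKM in mutant corneas and did not pass the test (adjusted p = 0.265).

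Of the receptors that regulate P450 genes, 9 of 10 listed were in the table and 6 were tested, of which 1 fell and 1 rose. The 2 called were 33.3% of those tested, against 13.2% of all genes tested. *Ppara*, which encodes the fatty acid receptor PPARα, had 1.06, 1.58 and 1.06 FPKM in control corneas and 0.47, 0.84 and 0.57 FPKM in mutant corneas (log2 fold change -0.97 ± 0.242, SE, adjusted p = 0.0279, edgeR). The call was lost without control sample 2 (adjusted p = 0.12), control sample 3 (0.0567) or mutant sample 3 (0.0723). *Vdr*, the vitamin D receptor, rose from 5.83 ± 0.0577 to 9.37 ± 1.39 FPKM (SD, n = 3 each, log2 fold change 0.68, adjusted p = 0.00238, edgeR). *Ahr*, the dioxin receptor, had a log2 fold change of -0.38 ± 0.132 (SE, adjusted p = 0.092, edgeR). Of its other target genes, 2 of 7 tested fell and none rose: *Nqo1*, with 33.9 ± 1.83 FPKM in control and 24.01 ± 2.38 FPKM in mutant mice (SD, n = 3 each, adjusted p = 0.00503), and *Aldh3a1*, the main soluble protein of the mouse corneal epithelium, with a log2 fold change of -0.25 (adjusted p = 0.0466). These 2 falls make a share of 28.6%, beside 5.42% lower and 13.2% called in either direction over all genes tested. This share rests on 7 genes. The call of *Aldh3a1* was lost in every fit that left out a sample, with adjusted p from 0.0636 to 0.147. Limma on log2(FPKM + 1) gave it an adjusted p of 0.354.

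Of 6 tested epoxide hydrolases and flavin monooxygenases, 1 fell, 16.7%, which is near the 13.2% of all genes tested. *Fmo5*, a flavin monooxygenase, had 16.96, 19.5 and 19.5 FPKM in control corneas and 9.09, 10.8 and 10.9 FPKM in mutant corneas (log2 fold change -0.96 ± 0.104, SE, adjusted p = 3.99e-04, edgeR). *Ephx1*, the microsomal epoxide hydrolase, had 111 to 120 FPKM in control corneas and 69.4, 94.0 and 104 FPKM in mutant corneas, without overlap but not past the threshold (adjusted p = 0.0823). The acylceramide genes, which make and carry barrier lipids of the skin, were 13 in number with 12 tested, of which 5 rose and none fell. These 5 were 41.7% of those tested, where 7.82% of all genes tested were higher. The median log2 fold change of the list was 0.27, against -0.0028 over all genes tested. *Sdr9c7* rose from 11.2 ± 2.02 to 19.9 ± 3.55 FPKM and *Ugcg* from 1.36 ± 0.171 to 3.20 ± 0.632 FPKM (SD, n = 3 each, adjusted p = 0.00896 and 0.00138, edgeR). *Alox12b*, a lipoxygenase of the cornified layer, had 20, 15 and 80 counts in control corneas and 406, 199 and 312 counts in mutant corneas. *Elovl4*, which lengthens fatty acids, had 3, 2 and 14 counts in control corneas and 576, 169 and 232 counts in mutant corneas. Both were higher in every mutant sample, with log2 fold changes of 2.98 and 5.65 that became 4.13 and 6.97 without control sample 3, and for *Elovl4* 4.94 without mutant sample 1. Limma on log2(FPKM + 1), a scale that understates the change of low genes, gave 2.09 and 2.40, with adjusted p = 0.00342 and 0.00247. *Abca12*, the lipid carrier of lamellar granules, had at most 2 counts in a control sample and 156, 38 and 101 counts in mutant corneas. Its mean CPM in mutant corneas was 32.6-fold the level of 3 counts in a library, a lower bound for the mean only. All 5 were highest in mutant sample 1, in which the keratocyte and leukocyte markers were also highest, and all 5 kept their call without it. The part of those cells in these levels was not tested. The epidermal marker list (*Krt1*, *Krt10*, *Krt2*, *Lor*, *Flg2*) summed to 13.3 to 15.7 CPM in the control and 11.3 to 13.9 CPM in mutant corneas, with *Krt2* and *Flg2* at 3 or fewer counts.

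**Figure D4:**
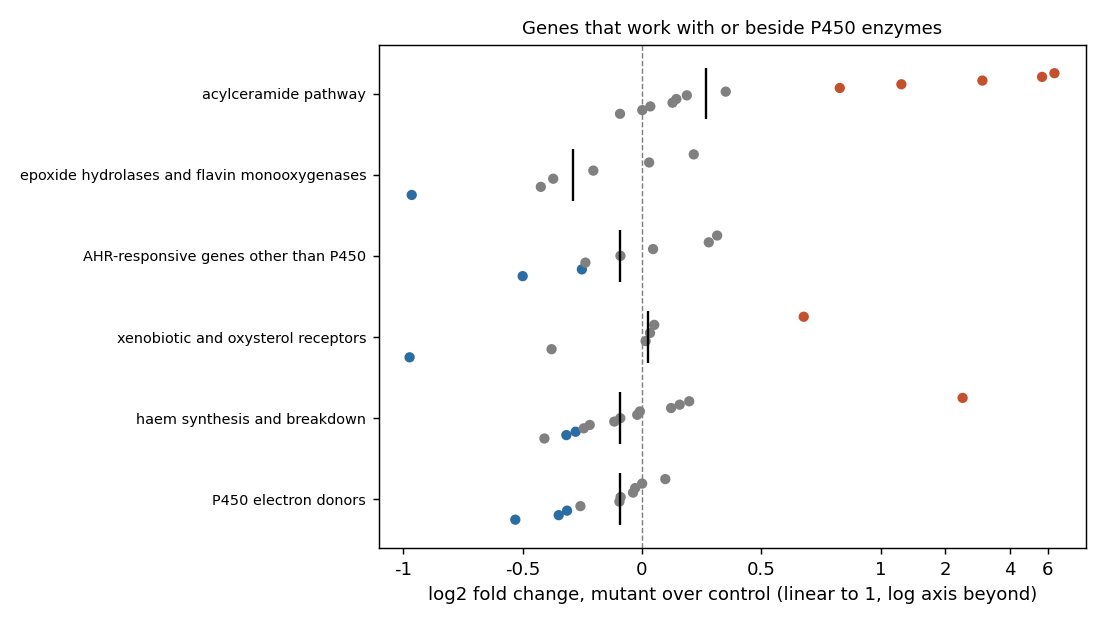
Log2 fold change (mutant over control, 3 samples each) of the tested genes of 6 lists of P450 partners, regulators and related genes. The axis is linear up to 1 and logarithmic beyond. Each point is a gene, and black lines are list medians. Blue (lower) and red (higher) points passed an adjusted p of 0.05 in edgeR's test. The 5 red points of the acylceramide list lie between 0.83 and 6.45, the last being *Abca12*, whose fitted value depends on the prior count because its control samples had 2 or fewer counts.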

How the data were processed

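RNA of the corneal epithelial layer, in 3 control and 3 mutant samples, was sequenced by the authors in single-end reads of 50 bases. Per the paper's methods, the authors filtered reads with SOAPnuke, aligned them with Bowtie2 2.2.5 and deposited expected counts and FPKM per gene from RSEM 1.2.12, 1 column per sample. The submitters' processing notes name build mm9, but the gene coordinates in the table fit GRCm38, which is used here. The labels name an Illumina kit, the methods a BGISEQ-500 instrument. The deposited log2 fold changes, p-values and q-values of the authors' own comparison, and their means per genotype, were not used.

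Expected counts were rounded and fitted for all genes with edgeR 4.0.16 in R 4.3.3 (TMM, filterByExpr, min.count 10, min.total.count 15, quasi-likelihood test, Benjamini-Hochberg adjustment). The standard error (SE) was derived by dividing the fitted log2 fold change by √F. Results were recomputed with upper-quartile scaling, DESeq2 1.42.0, all genes unfiltered, limma 3.58.1 on log2(FPKM + 1) and log2(FPKM + 0.1), a replicate block, each sample left out, other FPKM limits and, added after the data were seen, the sum of *Cyp4a12a* and *Cyp4a12b*. Named are members past an adjusted p of 0.05 or expressed, and list genes past it. Members and lists were chosen with earlier results of these data known. The fits were tested on simulated data with 200 changed genes. Shared windows and exon overlaps were counted in GENCODE M21. Whether counting used strand is not given in the sources used here.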

Additional observations from a re-analysis of the deposited data

How the results depend on the processing

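The number of members at an adjusted p under 0.05, 8, was 7 to 10 with other tools, scalings, filters, the block and the summed pair, and 4 to 8 without a sample. At the study's thresholds the count of 1 was 3 with DESeq2 (*Cyp2b19*, *Cyp4f15* and *Cyp7b1*), 2 without a filter (*Cyp2b19* and *Cyp4f15*), 0 with limma at either pseudocount (FPKM + 1 or + 0.1) and 0 to 1 without a sample. Limma gave 13 members at an unadjusted p under 0.05 with either pseudocount. The cause was not tested. The replicate block gave 8 members, the same genes, and 1 at the study's thresholds. The pairing was not borne out, since no label ties same-numbered samples to each other, and their deviations from the group means correlated by -0.03, 0.07 and -0.07. Under the block, list genes called went from 16 to 13, and they ranged from 11 to 17 without a sample. The number of expressed members, 19, was 22 at an FPKM of 0.5, 17 at 2 and 19 when all 6 samples had to pass.

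Of the 28 tested members, 21 had their fold change compared across the alternatives, the 19 expressed and the other 2 called. Among these, signs turned in 4 that were not called. *Cyp2s1* gave -0.02 without control sample 2, -0.01 without mutant sample 2 and -0.0398 without mutant sample 3, with a range from -0.0398 to 0.1596 without a sample. *Cyp27a1* gave -0.1004 without mutant sample 1 (range to 0.309), *Cyp2j9* 0.0139 without mutant sample 3 (range from -0.124), and *Cyp4f16* -0.0018 and -0.0022 with limma at pseudocounts of 1 and 0.1. *Cyp7b1* lost its call with limma on log2(FPKM + 1) (0.82, adjusted p = 0.0831). On that scale, which understates low genes, *Abca12* gave 0.64 and *Hmox1* 1.68, both still called. Members at 3 or fewer counts in every sample could not be compared at this depth.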
